A study of Rattus norvegicus with 12 samples.

Results

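Heart muscle genes were measured in rat lung, where their RNA can come from the heart muscle that surrounds the pulmonary veins of rodents. The genes described are Myh6, Myh7, Tnni3, Tnnt2, Actc1, Atp2a2, Ryr2, Pln and Nppa, chosen by name. All probe sets (groups of short probes for 1 transcript) that the array's annotation gives only 1 of these symbols were taken, which found 19 of the 8740 probe sets and all 9 genes among 4736. A further 5 probe sets carry the symbol of one of them together with another gene's and were left out. The genes were proposed with earlier results of these data in view, so their values are given as a description and support no test.

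Lung RNA of male Sprague-Dawley rats of 300 to 420 g was hybridised to Affymetrix RG-U34A arrays, 12 in all and 3 for each of the 4 groups. T/HS rats had trauma, in the form of a 5 cm laparotomy, and hemorrhagic shock, in which blood was drawn until the mean arterial pressure was 30 mmHg, held there for 90 min, and given back. T/HS-LDL rats had the same trauma and shock after the mesenteric lymph duct had been tied and cut. T/SS-LDL rats had the tied duct and the laparotomy with no blood drawn, and T/SS rats had the laparotomy with no blood drawn and an open duct. In all 4 groups cannulas were placed in a femoral artery and a jugular vein. The lungs were taken 3 h after the shock or sham period ended, 4.5 h after shock began. Per the series' description T/HS rats had lung injury, whereas T/HS-LDL, T/SS-LDL and T/SS rats had none that could be measured. Pentobarbital (50 mg/kg) is named as the anaesthetic, and the blood drawn from shocked rats was kept with heparin. The rats' ages, and which part of the lung was taken, are not given in the sources used here.

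In rodents a sleeve of heart muscle continues from the left atrium along the pulmonary veins into the lung. Its cells contract with the atrium and carry the proteins of an atrial muscle cell: myosin heavy and light chains that pull, an actin filament with troponins that switch the pull on with calcium, and a calcium store with its pump, its regulator and its release channel. Lung epithelium and vascular smooth muscle use other isoforms of most of these proteins, so the heart isoforms serve as markers of this tissue in a lung extract.

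Stretches around the annotated gene starts, from 250 bases before to 50 after, were taken from RefSeq (build GRCr8), where all 9 genes had an entry and Tnnt2 had 2, of which the first is shown. They were searched on both strands for 4 elements that heart muscle genes are known to carry: the GATA element (GATAA), the MCAT element (CATTCC), the CArG box bound by serum response factor, and the MEF2 site. The promoters of Tnni3 and Tnnt2 are shown because these genes followed the sample pattern described below, and those of Actc1 and Nppa because they shared it less. Capitals mark the elements found, TTATC being GATAA on the opposite strand.
Tnni3, chr1:78342321-78342620, plus strand: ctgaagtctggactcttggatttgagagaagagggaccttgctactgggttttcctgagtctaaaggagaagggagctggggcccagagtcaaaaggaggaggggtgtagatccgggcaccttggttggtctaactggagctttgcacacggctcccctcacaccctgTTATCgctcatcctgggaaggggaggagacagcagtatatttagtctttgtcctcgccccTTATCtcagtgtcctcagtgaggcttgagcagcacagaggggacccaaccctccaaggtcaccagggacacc
Tnnt2, chr13:49818873-49819172, plus strand: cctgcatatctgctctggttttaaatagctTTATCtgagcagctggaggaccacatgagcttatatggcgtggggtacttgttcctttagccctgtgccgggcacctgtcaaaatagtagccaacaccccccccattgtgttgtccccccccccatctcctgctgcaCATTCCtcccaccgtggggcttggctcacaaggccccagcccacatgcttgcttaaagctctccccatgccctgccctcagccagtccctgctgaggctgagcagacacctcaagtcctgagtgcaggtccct
Actc1, chr3:121271778-121272077, minus strand: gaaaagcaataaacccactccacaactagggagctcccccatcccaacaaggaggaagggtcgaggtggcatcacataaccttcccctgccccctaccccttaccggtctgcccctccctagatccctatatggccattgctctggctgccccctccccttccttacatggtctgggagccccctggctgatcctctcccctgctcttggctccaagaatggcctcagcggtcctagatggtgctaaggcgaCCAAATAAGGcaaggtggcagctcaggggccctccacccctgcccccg
Nppa, chr5:163711934-163712233, plus strand: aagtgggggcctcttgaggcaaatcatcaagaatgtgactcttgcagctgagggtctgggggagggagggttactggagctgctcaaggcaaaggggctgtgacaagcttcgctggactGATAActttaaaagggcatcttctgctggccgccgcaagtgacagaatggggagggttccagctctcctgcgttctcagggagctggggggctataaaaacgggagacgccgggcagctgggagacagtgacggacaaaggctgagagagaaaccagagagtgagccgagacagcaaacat

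The Tnni3 stretch held GATAA at 2 places, both on the opposite strand, ending at positions -78 and -18 from the start, and the Tnnt2 stretch held 1 GATAA and 1 CATTCC. The Nppa stretch held 1 GATAA, and the Actc1 stretch held 1 CArG box just after the annotated start. Elsewhere GATAA was found at Atp2a2 and Pln and CATTCC at Myh6. Of 33469 rat promoter stretches of the same length, 26.5% held GATAA, 14.2% CATTCC, 1.64% a CArG box and 3.29% a MEF2 site, so the first 2 are common by their letters alone. A match describes the sequence and not the binding of a factor, and genes of both kinds of pattern held GATAA.

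Before any comparison each array was set against every other. Every group held 1 pair of near-identical arrays, whose log2 differences had robust SDs of 0.00993 to 0.0548, while those of the 8 remaining within-group pairs were 0.164 to 0.232. Each such pair was averaged and counted as 1 sample, which left 8 samples, 2 per group: replicate 2 and the mean of replicates 1 and 3 in T/HS, T/HS-LDL and T/SS-LDL, and replicate 1 and the mean of replicates 2 and 3 in T/SS. Values of a group are given in that order, the single array and then the averaged pair. Array medians lay between 651 and 680.2 intensity units. Values are intensities made by the authors with RMA, and levels are compared only within a probe set. Of the 17 measured markers of alveolar and airway epithelium, 4 read over 90% of an array's highest value, where differences cannot be measured. These were Sftpa1, Sftpb, Sftpc and Ager, while others were dimmer, such as Akap5 at 199.5 to 299. The arrays give no position within the lung, so that the heart muscle transcripts come from pulmonary veins was not tested, and the genes are called by their heart muscle names only.

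The heart muscle genes set 2 samples apart, and these came from different groups. T/HS-LDL replicate 2 and the mean of T/SS replicates 2 and 3 held low levels of myosin heavy chain and troponin transcripts, while the other sample of each of these groups lay beside the T/HS and T/SS-LDL samples. The differences between groups in the 9 genes are therefore given with and without them; the counts of probe sets that do not overlap were made with them only.

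Myh6 encodes the alpha myosin heavy chain, the fast motor of the atrium and of the adult rodent ventricle. Its brightest probe set read 1361 and 1405 in T/HS, 398 and 1344 in T/HS-LDL, 1497 and 1468 in T/SS-LDL, and 1210.4 and 572 in T/SS. The low value of T/HS-LDL was replicate 2 and that of T/SS the mean of replicates 2 and 3, and the other 6 samples lay between 1210.4 and 1497. Within T/HS-LDL the samples differed 3.38-fold, and within T/SS 2.12-fold. A second probe set for Myh6 had its 2 lowest values in the same samples, 413 in T/HS-LDL replicate 2 and 465 in T/SS replicates 2 and 3, with the others from 708 to 894. The remaining one was lowest at 657 in T/HS-LDL replicate 2, but there T/SS-LDL replicates 1 and 3, at 731, lay below T/SS replicates 2 and 3, at 786.

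Myh7 encodes the beta myosin heavy chain, the slow motor of heart and slow skeletal fibres. Its brighter probe set read 1923 and 2388 in T/HS, 504 and 2131 in T/HS-LDL, 2361 and 2198 in T/SS-LDL, and 2137 and 593 in T/SS. This was the widest gap among the 19 probe sets, 4.22-fold within T/HS-LDL and 3.6-fold within T/SS. Among all 8740 probe sets it ranked 10 by size of the difference within T/HS-LDL and 9 within T/SS. The probe sets of Myh6 and the brighter one of Myh7 carry the array's mark for probes shared within a gene family, and Myh6 and Myh7 are close in sequence, so a transcript of one may be read by the other's probes. The other Myh7 probe set, without that mark, was dim, at 111 in T/HS-LDL replicate 2 and 139 in T/SS replicates 2 and 3, with the other samples from 144 to 187.

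Tnni3 encodes cardiac troponin I, the inhibitory subunit that holds the filament off until calcium arrives, and it is used clinically as a heart marker. Its brighter probe set read 1910.4 and 2299 in T/HS, 914 and 1820.0 in T/HS-LDL, 2022 and 2337 in T/SS-LDL, and 1897 and 1036 in T/SS. The dimmer one read 643 and 816 in T/HS, 195 and 600.0 in T/HS-LDL, 822 and 778 in T/SS-LDL, and 670.1 and 311 in T/SS. Both probe sets were lowest in the same samples as Myh6 and Myh7. The remaining 6 samples lay between 1820.0 and 2337 in the brighter one and between 600.0 and 822 in the dimmer one. Among these 6 the T/HS-LDL sample was the lowest in both.

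Tnnt2 encodes cardiac troponin T, which ties the troponin complex to tropomyosin. It read 1125 and 1189 in T/HS, 508 and 1162 in T/HS-LDL, 1255 and 1143 in T/SS-LDL, and 1143 and 625 in T/SS. The 6 samples other than the low ones lay between 1125 and 1255, a narrower span than for any of the genes above.

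**Figure D1:**
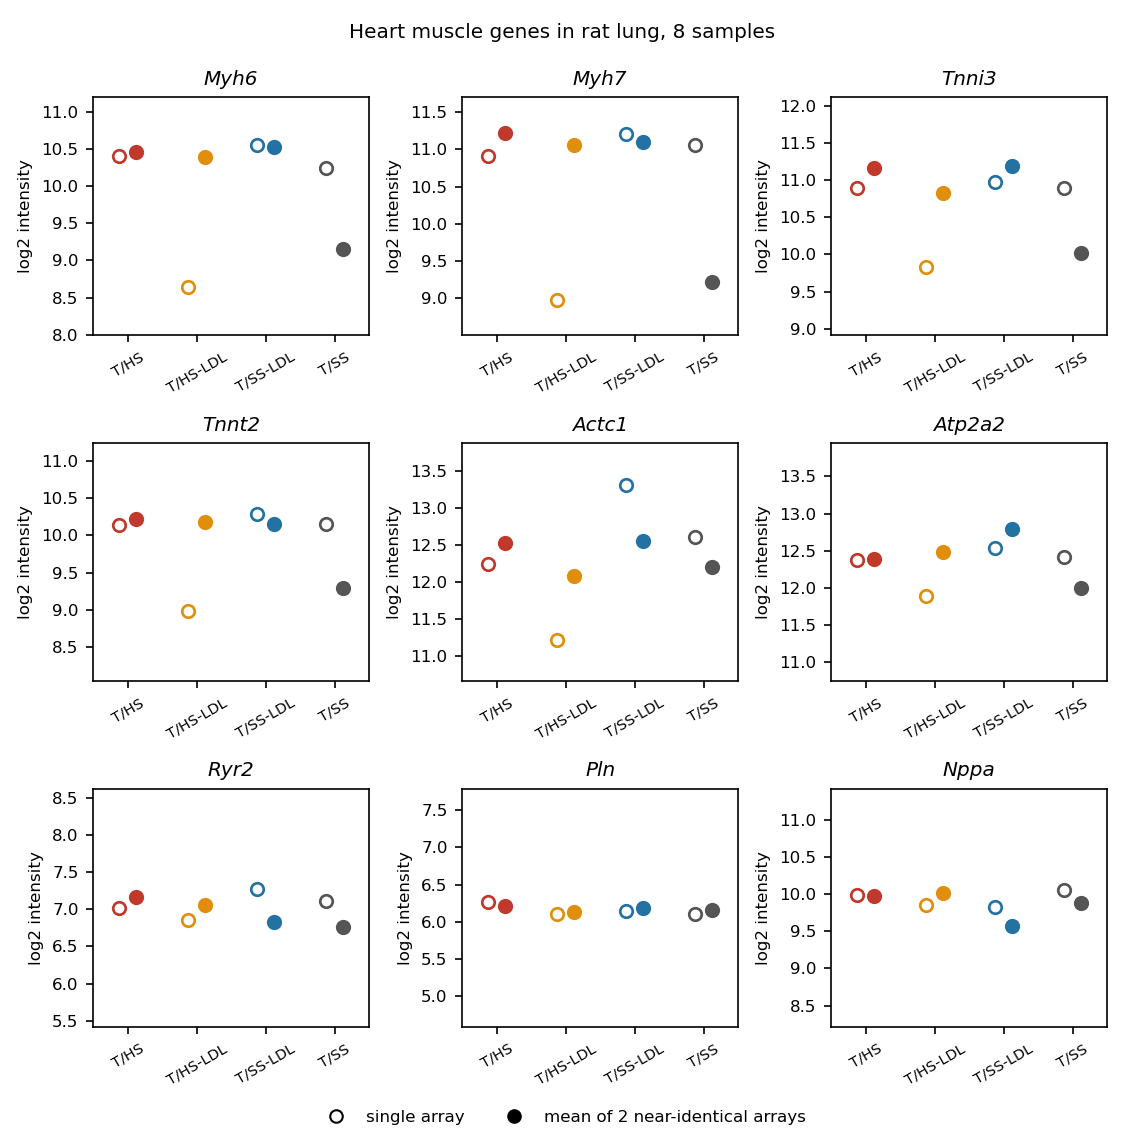
Log2 intensity of the brightest probe set of each of 9 heart muscle genes in 8 rat lung samples, by group (horizontal axis); every panel spans the same number of log2 units, open circles are single arrays and filled circles the mean of 2 near-identical arrays. Myh6, Myh7, Tnni3 and Tnnt2 have 1 low sample in T/HS-LDL (replicate 2) and 1 in T/SS (replicates 2 and 3), whereas Pln and Nppa stay nearly level.

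Actc1 encodes cardiac alpha actin, the main thin filament protein of the heart, which smooth muscle also makes at lower levels. It read 4831 and 5898 in T/HS, 2391 and 4336 in T/HS-LDL, 10163 and 5984 in T/SS-LDL, and 6246 and 4732 in T/SS. The lowest value was again T/HS-LDL replicate 2, but T/SS replicates 2 and 3 lay within the span of the other samples, and the highest value was T/SS-LDL replicate 2. Both T/HS-LDL samples lay below both samples of every other group. The list of smooth muscle and pericyte genes (11 measured of 18) also had its highest summed intensity in T/SS-LDL replicate 2, at 65367, against 41621 to 61723 in the others, with T/SS replicates 2 and 3 second. Its part in the level of Actc1 was not tested.

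Atp2a2 encodes SERCA2, the pump that refills the calcium store of heart muscle and, in another isoform, of most cells. Its brightest probe set read 5324 and 5385 in T/HS, 3812 and 5724 in T/HS-LDL, 5971 and 7130.0 in T/SS-LDL, and 5450.3 and 4082 in T/SS. The 2 lowest values stood in the same samples as for the myosins and troponins, with smaller gaps of 1.5-fold and 1.34-fold. The other 3 probe sets of Atp2a2 did not share that pattern: the second brightest read 3072 in T/HS-LDL replicate 2 and 3480.4 in T/SS replicates 2 and 3, with the lowest value, 3057, in T/HS replicate 2.

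Ryr2, the channel that releases calcium from the store, and Pln, the phospholamban that restrains SERCA2, were dim. Ryr2 read 129.7 and 143 in T/HS, 115 and 133 in T/HS-LDL, 154 and 113 in T/SS-LDL, and 138 and 109 in T/SS. Pln lay between 68.9 and 77.0 in all samples. Both lie below 219.96, the 25th percentile of the probe sets' mean intensity. In all, 13 of the 19 probe sets and 7 of the 9 genes were above that level.

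Nppa encodes atrial natriuretic peptide, the hormone that atrial muscle stores and releases on stretch. Its brightest probe set read 1014 and 1001 in T/HS, 926 and 1033 in T/HS-LDL, 907 and 762 in T/SS-LDL, and 1063 and 939.7 in T/SS. The lowest value lay in T/SS-LDL replicates 1 and 3, and the samples low in myosin were 1.12-fold and 1.13-fold below their group's other sample. All 4 Nppa probe sets read lower in both of these samples than in their group's other sample, by 1.11-fold to 1.23-fold. In 1 dim probe set they held the 2 lowest values, 178 and 159, with the others from 190.2 to 215. These differences were in the same direction as those of the myosins and troponins. Set against T/HS and T/SS-LDL, the groups with no low sample, the probe sets differed. The dim probe set with the 2 lowest values there differed 1.11-fold and 1.23-fold, against 1.08-fold and 1.05-fold. The second brightest differed 1.15-fold and 1.19-fold, against 1.12-fold and 1.14-fold. The brightest differed less than in T/SS-LDL (1.19-fold). The remaining one, dim, differed less than in T/HS and T/SS-LDL (1.26-fold in each). Whether Nppa has a gap beyond ordinary spread cannot be told from 2 samples per group.

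For the myosins and troponins the gap lay between samples of a group. Between the 2 samples of a group, 4 of the 19 probe sets differed over 2-fold in T/HS-LDL, where 1.77% of all probe sets did, and 3 of 19 in T/SS, where 0.458% did. None of the 19 did so in T/HS, where 2.87% of all probe sets differed over 2-fold, or in T/SS-LDL, where 0.984% did. T/HS-LDL replicate 2 and the mean of T/SS replicates 2 and 3 were the 2 lowest of the 8 samples in 9 of the 19 probe sets, against 2.14% of all probe sets. These 9 were 2 each of Myh6, Myh7 and Tnni3 and 1 each of Tnnt2, Atp2a2 and Nppa. In the whole array 40 probe sets differed over 2-fold within T/SS and 155 within T/HS-LDL, and 21 did so in both. Of the 21, 6 were low in T/SS replicates 2 and 3 and in T/HS-LDL replicate 2, namely Myh6, Myh7, the dimmer Tnni3 probe set, both probe sets of Myl7 and 1 with no gene name. The opposite way on both sides were 2, for S100g, a calcium binding protein, and Pik3r1, a kinase subunit, and the other 13 went opposite ways in the 2 groups.

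Among heart muscle genes outside the 9, the atrial myosin light chains had the gap of the myosin heavy chains and troponins. Myl7 encodes the regulatory light chain of the atrium. Its brighter probe set read 7589 and 9413 in T/HS, 854 and 7660.1 in T/HS-LDL, 7992 and 8596 in T/SS-LDL, and 7773 and 1201 in T/SS. The samples of T/HS-LDL differed 8.97-fold, the widest of 8740 probe sets in that group, and those of T/SS 6.47-fold, which ranked 5. The dimmer Myl7 probe set read 2289 and 2893 in T/HS, 852 and 2441 in T/HS-LDL, 2739 and 2849 in T/SS-LDL, and 2481 and 1019.6 in T/SS. Myl4, the essential light chain of the atrium, read 1055 and 1155 in T/HS, 542 and 956 in T/HS-LDL, 1039.9 and 1167 in T/SS-LDL, and 929 and 593 in T/SS.

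The ventricular light chains did not show the gap. Myl2, the regulatory light chain of the ventricle and of slow skeletal fibres, read 1193 and 1306 in T/HS, 1035 and 1174 in T/HS-LDL, 1191 and 1032 in T/SS-LDL, and 1180.0 and 1185 in T/SS. Myl3, the ventricular essential light chain, lay between 340.1 and 466 in all samples. Whether the probes of Myl2 and Myl3 read a transcript in lung was not tested.

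Of the 46 measured genes of a wider heart muscle list, 11 had their 2 lowest values in the same samples, by the brightest probe set. Of the list's 85 probe sets 17 did, against 2.14% of all probe sets. Beside Myl7 and Myl4 the 11 genes included the sarcomere proteins Actn2, Csrp3, Tcap and Smpx, and the mitochondrial proteins Ckmt2 and Cox6a2. The rest were the fatty acid carrier Fabp3, the muscarinic receptor Chrm2, and Ankrd1. Cox6a2, the muscle form of a cytochrome oxidase subunit, read 2206 and 2202 in T/HS, 1456 and 2249.9 in T/HS-LDL, 2359 and 2183 in T/SS-LDL, and 2119 and 1625 in T/SS. Csrp3, a protein of the Z disc, read 927 and 1010.1 in T/HS, 588 and 836 in T/HS-LDL, 962 and 794 in T/SS-LDL, and 919.6 and 659 in T/SS. Fabp3 read 369 and 473 in T/HS, 276 and 412 in T/HS-LDL, 465 and 529.8 in T/SS-LDL, and 510.0 and 288 in T/SS. The gaps of these genes were smaller than those of Myl7. Some of the 11 had slight gaps: within T/SS Tcap differed 1.04-fold and Ckmt2 1.08-fold. Chrm2 was dim, at 127.3 and 127.0 in the low samples and from 129.9 upward in the others.

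Some other probe sets of that list were low in one or both of these samples. Ckm, muscle creatine kinase, read 1.4-fold lower in T/HS-LDL replicate 2 and 1.23-fold lower in T/SS replicates 2 and 3 than in the group's other sample, and 1 probe set of Tpm1, tropomyosin 1, had its 2 lowest values there (1498 and 1387). Of the 2 probe sets of Cryab, a small heat shock protein, 1 was 2.11-fold lower in T/SS replicates 2 and 3 but not low in T/HS-LDL replicate 2. The heart transcription factors Gata4 and Nkx2-5 were not low in both samples, with Nkx2-5 at 1017 and 1111 in T/HS, 1008 and 1072 in T/HS-LDL, 835 and 919.7 in T/SS-LDL, and 1104 and 1163 in T/SS. Gja5, the connexin 40 of atrial muscle and arterial endothelium, read 15126 in T/HS replicate 2 by its brightest probe set and 3305 to 4668 in the other 7 samples, while its other 2 probe sets read 1.19-fold and 1.09-fold higher there than in the group's other sample. Ankrd1, a stress-responsive protein of muscle nuclei, and another probe set of Tpm1 were highest in T/SS-LDL replicate 2 (2122 and 7629.8), the sample in which Actc1 was highest. In a bulk extract fewer cells of a type and less RNA per cell cannot be told apart.

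**Figure D2:**
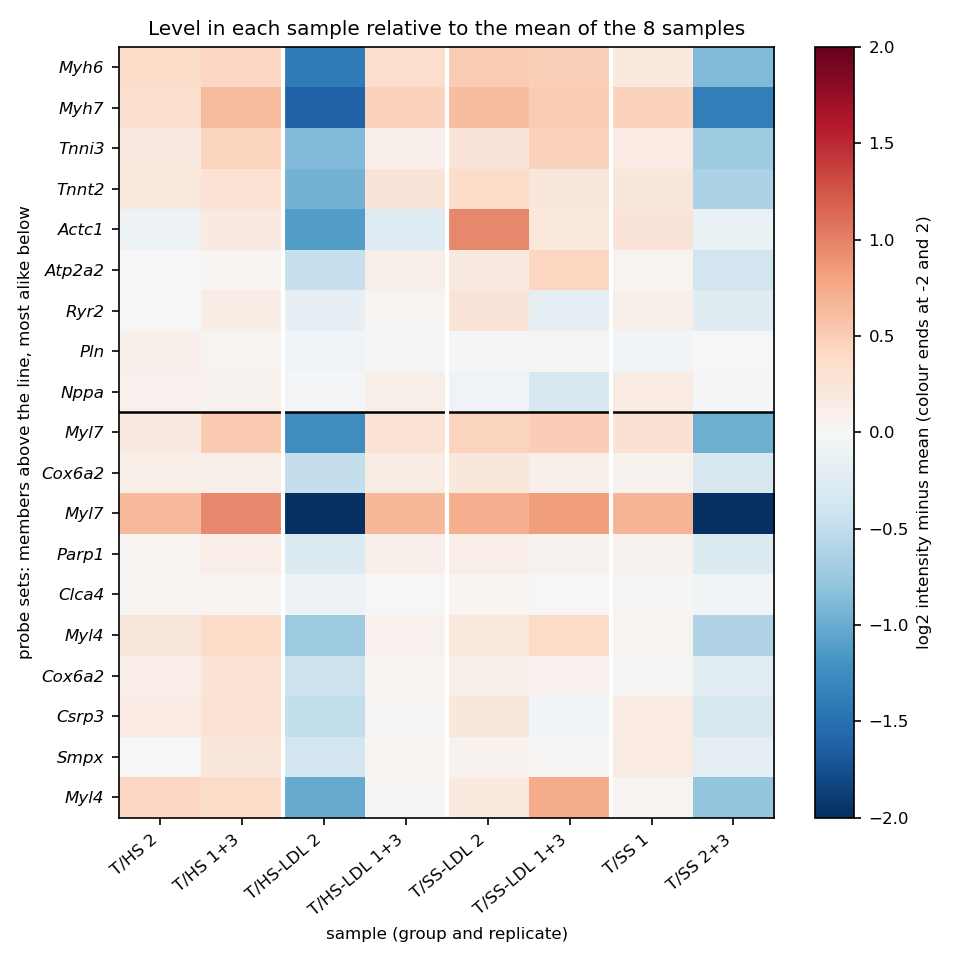
Log2 intensity minus the mean of the 8 samples (colour) for the brightest probe set of each of the 9 genes (above the line) and for the 10 other probe sets most alike to them (below), with samples in columns by group and replicate. The columns T/HS-LDL 2 and T/SS 2+3 are blue for the myosins, troponins, Myl7 and Myl4, and the other column of each of these groups is not.

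The 10 probe sets most like the mean profile of the 9 genes, by Pearson's r over the 8 samples, were 2 each of Myl7, Cox6a2 and Myl4 and 1 each of Parp1, Clca4, Csrp3 and Smpx. The highest r was 0.989, for Myl7, and the tenth 0.915, for Myl4. The likeness rests mostly on the low samples: without T/HS-LDL replicate 2 and T/SS replicates 2 and 3 the r of these 10 was 0.0701 to 0.720 over 6 samples. All points share the arrays and their normalization. Parp1, a DNA repair enzyme, spanned only 1235 to 1647 intensity units and Clca4 75.6 to 84.3, so their profile is alike in shape but not in size. Within the 9 genes, r with the mean of the other 8 was 0.994 for Tnnt2, 0.984 for Myh6, 0.979 for Myh7, 0.960 for Tnni3, 0.870 for Atp2a2, 0.741 for Actc1, 0.690 for Ryr2, 0.376 for Pln and 0.012 for Nppa. Over the 6 samples without the low ones it was 0.882 for Tnnt2, 0.774 for Myh7, 0.673 for Actc1, 0.50 for Myh6, 0.414 for Ryr2, 0.280 for Tnni3, -0.0073 for Atp2a2, -0.252 for Pln and -0.545 for Nppa.

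The summed intensity of the 9 genes was 17696 and 19784 in T/HS, 9638 and 17753 in T/HS-LDL, 24401 and 21208 in T/SS-LDL, and 19353 and 12760.1 in T/SS. The highest sample was 2.53-fold above the lowest, and the lowest was T/HS-LDL replicate 2. Without the low samples that ratio was 1.38. The brightest genes weigh most in this sum. Actc1 read 10163 in the highest sample, T/SS-LDL replicate 2, and 2391 in the lowest, and Atp2a2 5971 and 3812. The 46 genes of the wider heart muscle list spanned 1.37-fold, and 1.12-fold without the low samples. That list's highest sum, in T/HS replicate 2, holds 15126 for Gja5, whose other probe sets were far less raised there. For skeletal muscle, with 28 genes measured of 33, the sums lay within 1.16-fold, with the lowest, 16923, in T/HS-LDL replicate 2 and 17927 in T/SS replicates 2 and 3. For the 13 genes of alveolar and airway epithelium that were not near the ceiling the ratio of highest to lowest was 1.25. For endothelium (12 of 20) it was 1.18. For the mitochondrial respiratory chain (27 of 42) it was 1.23, or 1.26 without Cox4i1 and Cox8a, which read near the ceiling. Smooth muscle and pericytes ranged 1.57-fold, blood cells (8 of 11) 1.54-fold, adipose tissue and pleural mesothelium (12 of 18) 1.49-fold, and neurons and Schwann cells (13 of 16) 1.62-fold. Smooth muscle sums were 47134 in T/HS-LDL replicate 2 against 41629.6 in that group's other sample. They were 61723 in T/SS replicates 2 and 3 against 48209 in T/SS replicate 1. In T/SS 10 of the 11 genes lay higher in replicates 2 and 3. In T/HS-LDL only 6 of the 11 lay higher in replicate 2, with a median log2 difference of 0.01. There Acta2 read 15495 against 10796 and made up most of the gap in the sum. The blood cell sums were 93872 against 86674 in T/HS-LDL and 69656 against 60852 in T/SS. These sums include Hbb and S100a9, which read near the ceiling. Without them the sums were 35131 against 28616 in T/HS-LDL and 28432 against 22785 in T/SS. In each of these 2 groups 5 of the 8 blood cell genes lay higher in the sample low in heart muscle genes. The part of these lists in the heart muscle levels was not tested.

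**Figure D3:**
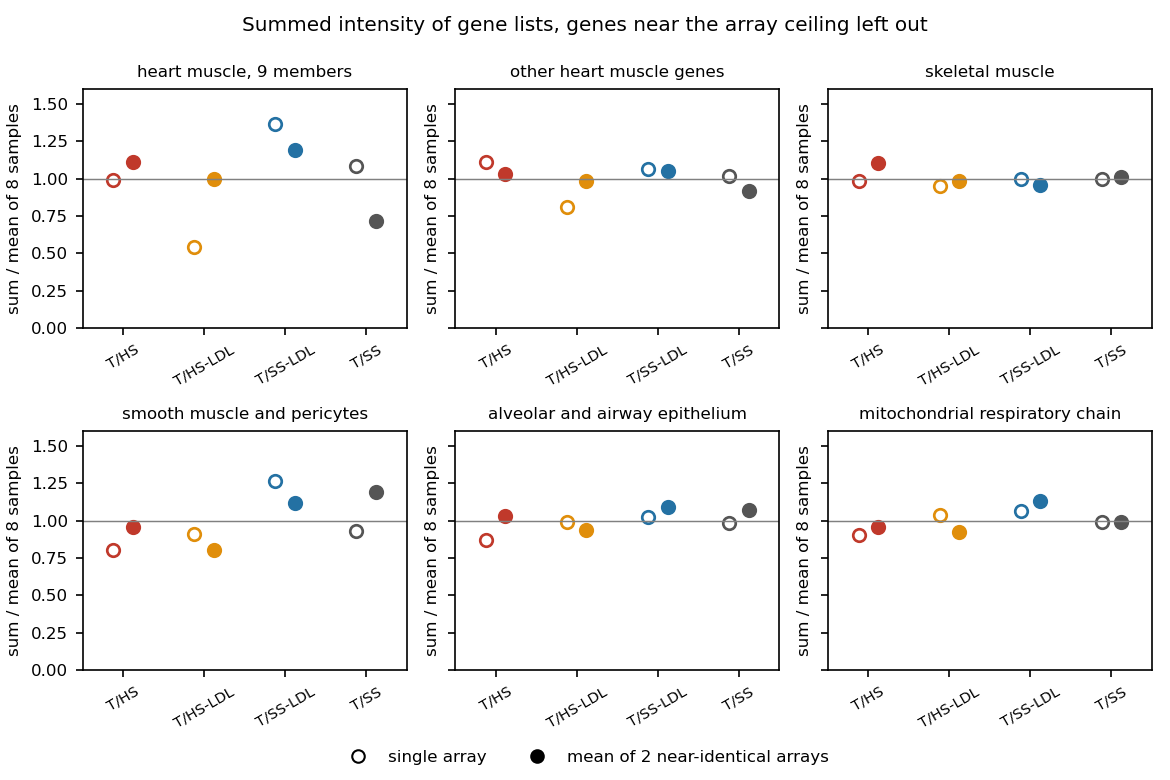
Summed intensity of 6 gene lists in 8 samples, without genes over 90% of an array's highest value, divided by the mean of the 8, by group (horizontal axis); open circles are single arrays and filled circles the mean of 2 near-identical arrays. The 9 heart muscle genes span 2.53-fold from lowest to highest, while skeletal muscle genes span 1.16-fold and epithelial genes 1.25-fold. Actc1 and Atp2a2, the brightest of the 9 genes, weigh most in their sum.

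Array controls give 2 measures of RNA quality. The log2 signal of the 5 prime minus the 3 prime control probe set of GAPDH, which falls where RNA is degraded, was -1.32 in T/HS-LDL replicate 2 and -1.22 in T/SS replicates 2 and 3, within the span of -1.54 to -0.98 over all samples. The same measure of beta-actin was -0.27 in T/HS-LDL replicate 2, the lowest of the 8, and -0.26 in that group's other sample, with -0.12 in T/SS replicates 2 and 3 and the highest at -0.067. The 3 prime probe set of beta-actin read 14.87 to 14.98 on the log2 scale, near the arrays' highest values, where differences cannot be measured. The beta-actin measure is limited by this. The part of RNA quality in the heart muscle levels was not tested.

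The comparison of T/HS with T/SS asks for the effect of shock and injury together. By 1 probe set per gene, the brightest, 8 of the 9 genes lay higher in T/HS, with a median log2 difference of 0.18, against -0.01 for all 4736 genes. Of the 46 genes of the wider heart muscle list 22 lay higher, with a median of -0.03. Myh7 averaged 11.07 in T/HS and 10.14 in T/SS on the log2 scale, a difference of 0.93 ± 0.76 (SE, n = 2 samples per group), and Tnni3 differed by 0.58 ± 0.38. Of the 19 probe sets 7 were higher in both T/HS samples than in both T/SS samples and 1 lower, where 40.1% of all probe sets did not overlap. Limma called 0 of the 19 and 0% of the 8740 probe sets, and 769 had an unadjusted p under 0.05. Without T/SS replicates 2 and 3 the difference of Myh7 was 0.0043, that of Tnni3 0.14 and the median 0.0043. With dim probe sets left out the median was 0.45.

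Shock with the duct open and with the duct tied was set side by side in T/HS and T/HS-LDL. These groups differ in duct ligation as well as in reported lung injury, and the 2 cannot be told apart here. All 9 genes lay higher in T/HS, with a median log2 difference of 0.59, against 0.02 for all genes. On the wider list 33 of 46 lay higher, with a median of 0.12. Myh6 averaged 10.43 in T/HS and 9.52 in T/HS-LDL, a difference of 0.92 ± 0.56, and Actc1 12.38 and 11.65, a difference of 0.73 ± 0.35. Of the 19 probe sets 10 were higher in both T/HS samples, and 34.1% of all probe sets did not overlap. Limma called 0 of the 19 and 0% of all, and 557 had an unadjusted p under 0.05. Without T/HS-LDL replicate 2 the median was 0.034, Myh6 0.041 and Actc1 0.30.

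Shock with the duct tied was addressed by T/HS-LDL against T/SS-LDL, where 8 of the 9 genes lay lower in T/HS-LDL. The median was -0.64, against 0.01 for all genes. On the wider list 30 of 46 lay lower, with a median of -0.11. Actc1 averaged 11.65 in T/HS-LDL and 12.93 in T/SS-LDL, a difference of -1.28 ± 0.35, and Tnnt2 9.58 and 10.23, a difference of -0.64 ± 0.41. Nppa lay higher, by 0.23 ± 0.13. Of the 19 probe sets 8 had both T/HS-LDL samples below both T/SS-LDL samples and 1 above, and 29.2% of all probe sets did not overlap. Limma called 0 of the 19 and 0% of all, and 331 had an unadjusted p under 0.05. Without T/HS-LDL replicate 2 the median was -0.096, Tnnt2 -0.043, Nppa 0.31 and Actc1 -0.85, so that Actc1 alone of the 9 kept a difference over 0.5. With all samples, the 11 measured genes of smooth muscle and pericytes, where Actc1 can also be made, all lay lower in T/HS-LDL. Their median was -0.39, and their part in the difference of Actc1 was not tested.

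Tying the duct without shock was addressed by T/SS-LDL against T/SS. Here 8 of the 9 genes lay higher in T/SS-LDL, with a median of 0.50, against -0.02 for all genes. On the wider list 23 of 46 lay higher, with a median of 0.0024. Myh7 averaged 11.15 in T/SS-LDL and 10.14 in T/SS, a difference of 1.02 ± 0.76, and Atp2a2 12.67 and 12.20, a difference of 0.47 ± 0.22. Nppa lay lower, by -0.27 ± 0.13. Of the 19 probe sets 7 were higher in both T/SS-LDL samples and 1 lower, and 40.6% of all probe sets did not overlap. Limma called 0 of the 19 and 0% of all, and 370 had an unadjusted p under 0.05. Without T/SS replicates 2 and 3 the median was 0.092, Myh7 0.092, Nppa -0.35 and Atp2a2 0.26. With the mean over all probe sets of a gene the median was 0.33. These comparisons share their samples pairwise, so their values are not independent of each other.

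**Figure D4:**
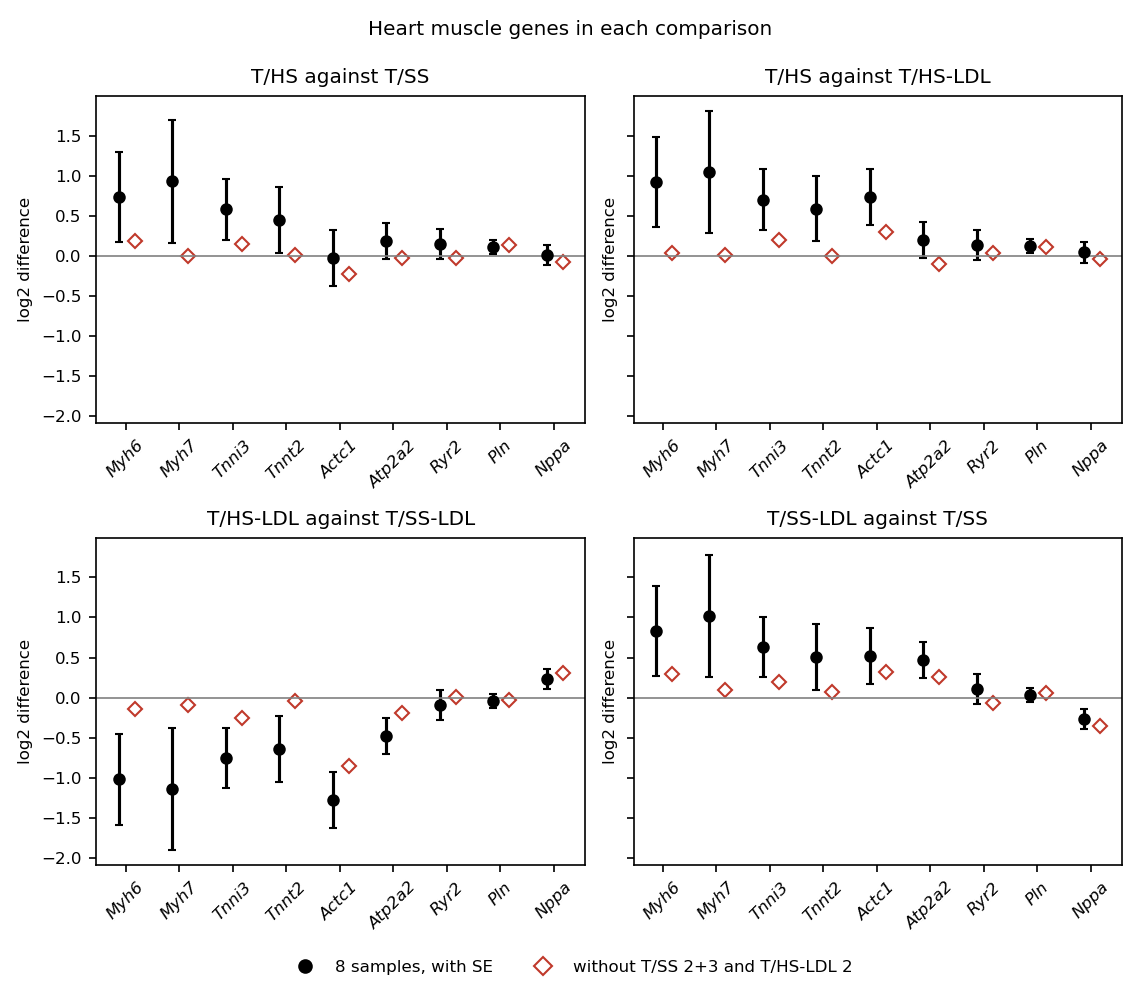
Log2 difference of each of the 9 genes (brightest probe set) in 4 comparisons, first group minus second; black circles are the 8-sample values with the standard error from limma (n = 2 samples per group), red diamonds the values without T/SS replicates 2 and 3 and T/HS-LDL replicate 2. For Myh6, Myh7, Tnni3 and Tnnt2 the diamonds lie between -0.26 and 0.29 in all 4 comparisons, while Actc1 stays at -0.85 in T/HS-LDL against T/SS-LDL.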

How the data were processed

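Gene expression was measured in 12 lung samples on 1-colour Affymetrix RG-U34A arrays. Per the labels, the authors made the deposited intensity values with RMA, and its version is not given in the sources used here. The values are linear, so log2 was taken with no further scaling. Of 8799 probe sets, 59 controls were left out. Symbols came from the platform's annotation: 7006 probe sets had 1 symbol, 308 several and 1426 none. Each gene is represented by its brightest probe set on average.

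Arrays of a group with a robust SD of log2 differences under 0.1 were averaged, since they may be 1 sample measured again. The labels call the arrays biological replicates but name no animal, so the spread may be technical. Limma 3.58.1 in R 4.3.3 fitted 4 groups to 8 samples (4 residual and 2.85 prior degrees of freedom), two-sided, with Benjamini-Hochberg adjustment over 8740 probe sets and a threshold of 0.05. The procedure was tested on simulated data. Array number limits the precision.

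Same-numbered arrays correlated above 0.1 in 3 of 18 pairs (r from -0.166 to 0.189), so no pairing was used. The genes and lists were chosen with earlier results of these data known. Named genes are the 9 genes, the most highly expressed genes of each list, the heart muscle list, and the 10 most alike probe sets; S100g and Pik3r1 were named after their values were seen.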

Additional observations from a re-analysis of the deposited data

Results flagged for a closer look

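In 3 of the 19 probe sets the shock effect had opposite directions with the duct open and with the duct tied, and the groups did not overlap in either case. The share of all 8740 probe sets with this pattern was not counted. In either direction, 40.1% of all probe sets did not overlap between T/HS and T/SS, and 29.2% between T/HS-LDL and T/SS-LDL. The shock effect with the duct open minus that with the duct tied was 1.75 on the log2 scale for Myh6 (brightest probe set), 1.33 for Tnni3 (brighter probe set) and 0.155 for Pln. All 3 were higher with shock where the duct was open and lower with shock where it was tied. Limma's interaction test gave an adjusted p of 0.999958 for each of the 3, so no difference of the shock effects was called, and over all 8740 probe sets it called 0, with 261 at an unadjusted p under 0.05. The size of the values of Myh6 and Tnni3 rests mostly on T/SS replicates 2 and 3 and T/HS-LDL replicate 2, and Pln is dim. Without these samples the directions stayed. The shock effect on Myh6 was then 0.19 with the duct open and -0.14 with it tied. For Tnni3, T/HS read 1910.4 and 2299 against 1897 in T/SS replicate 1. The remaining T/HS-LDL sample read 1820.0 against 2022 and 2337 in T/SS-LDL.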

How the results depend on the processing

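In the 12 separate arrays limma called 629 probe sets for shock with an open duct (T/HS, T/SS) and 372 for T/HS against T/HS-LDL. It called 127 for shock with a tied duct (T/HS-LDL, T/SS-LDL), 141 for ligation alone (T/SS-LDL, T/SS) and 1 for the interaction. The 8 samples gave 0 each. With the replicate block on the 12 arrays the counts were 456, 130, 47, 21 and 1 in the same order. With near-identical arrays as a random block shock with an open duct gave 25, and the others 0. Leaving out each of the 8 samples in turn gave 0 to 139, 0 to 66, 0 to 2, 0 to 2 and 0 to 27 calls. The 139, 66 and 27 came without T/HS replicates 1 and 3. Such fits leave 1 sample in a group, assumed to vary like the others. Quantile normalization, an offset of 50, leaving out dim probe sets and (not for the interaction) fitting only the groups compared gave 0 calls.

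The median log2 difference of the 9 genes was also taken with each sample left out in turn. It lay between 0.0043 and 0.39 for shock with an open duct and between 0.034 and 1.16 for T/HS against T/HS-LDL. For shock with a tied duct it lay between -1.24 and -0.096, and for ligation alone between 0.092 and 0.72. The values nearest 0 came without T/SS replicates 2 and 3 or T/HS-LDL replicate 2. Leaving out both of these samples, a choice made after seeing the data, gave the same medians, 0.0043, 0.034, -0.096 and 0.092. Each comparison holds only 1 of these samples, so this is no further check. The values of single genes repeat in the same way and are counted again below. Of 352 values of single genes under the alternatives, 306 stayed within 1 SD of the reported one, and 38 of the other 46 came from leaving out samples, while 23 had another sign. That SD includes the low samples and is wide for the myosins and troponins, so a value such as that of Myh7 for shock with an open duct, 0.0043 without T/SS replicates 2 and 3 against 0.93, counts as within it. With dim probe sets left out the median for shock with an open duct was 0.45.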
